A study of Mus musculus with 6 samples.

Results

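Each heartbeat depends on a cycle of calcium in the cardiomyocyte, and 10 genes that encode the main proteins of that cycle were followed here in hearts with a transgene for a glucose transporter. They are *Cacna1c*, *Ryr2*, *Jph2*, *Trdn*, *Casq2* and *Hrc* for calcium entry, release and storage, *Atp2a2* and *Pln* for its reuptake, *Slc8a1* for its removal from the cell and *Camk2d* for the kinase that acts on several of them. Members were all probe sets whose annotation on the array platform held exactly 1 gene symbol, that symbol being on this list. This gave 34 of 45037 probe sets, and all 10 genes of the 18193 with a single symbol had at least 1. The left ventricles of 3 wild-type mice (WT) and of 3 transgenic mice (Glut1-TG) were profiled, with 1 array for each heart. The transgene encodes human Glut1, an insulin-independent glucose transporter, under the alpha-myosin heavy chain promoter, which is active in cardiomyocytes. Both groups were FVB males aged 11 to 12 weeks and fed standard chow, and the labels name no further treatment.

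In a ventricular cardiomyocyte the action potential opens L-type calcium channels in the T-tubule membrane, and the small calcium entry opens ryanodine receptors of the sarcoplasmic reticulum facing them. The released calcium activates the myofilaments and is then pumped back by the SERCA2 ATPase or carried out by the sodium-calcium exchanger. Loss of SERCA2 activity and leak through the ryanodine receptor are well-known features of failing hearts.

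In the comparison of Glut1-TG with WT hearts, 0 of the 10 genes passed limma at an adjusted p under 0.05, while 0.857% of the 13178 genes tested did, 0.599% lower and 0.258% higher. The smallest adjusted p among the members was 0.37, for *Ryr2*. At an unadjusted p under 0.05, *Ryr2* and *Slc8a1* were lower, which is 2 of 10 genes beside 5.81% of all genes lower and 11.3% in either direction. At the fold and p thresholds that the study's methods give, 0 members were called beside 5.84% of all genes in either direction and 2.65% lower. All 10 log2 fold changes were below 0, that is, lower in Glut1-TG hearts, as were those of 47% of all genes tested, and their median was -0.18 against 0.02 for all genes. The 14 cardiomyocyte markers, such as troponins and titin, had the same direction in 14 of 14 and the same median of -0.18. Their summed signal ran from 529609 to 637832 in WT hearts and from 501142 to 529621 in Glut1-TG hearts. In ventricular tissue, fewer cardiomyocytes and less RNA of a gene in each cardiomyocyte cannot be told apart. The medians of the members and of the markers also shifted with the scaling of the arrays, to -0.02 and 0 after quantile normalization.

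**Figure D1:**
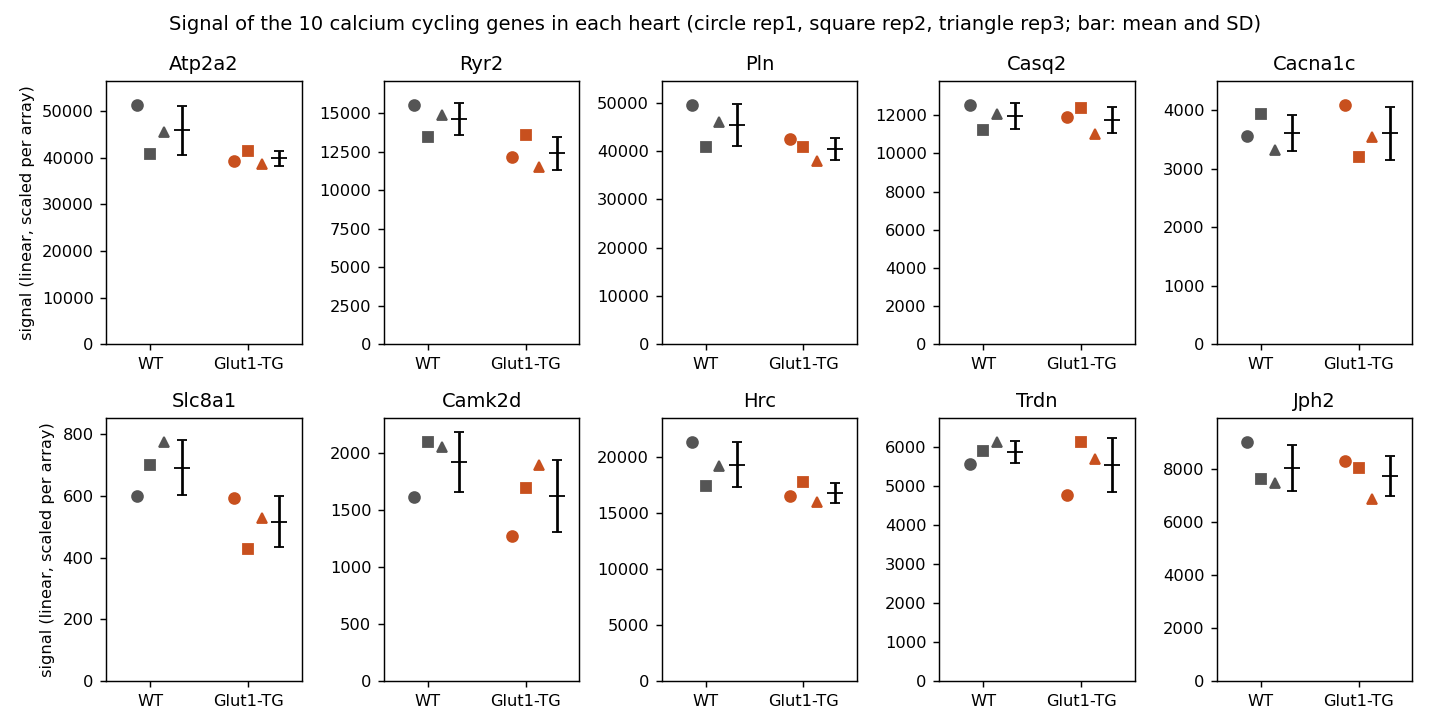
Signal (vertical axis, linear scale, scaled per array by the authors) of the probe set that stands for each of the 10 genes, with 1 point per heart (grey WT, orange Glut1-TG) and bars for the mean and SD of 3 hearts. The groups overlap in every panel but that of Slc8a1, where the lowest WT signal was 599 and the highest Glut1-TG signal 594.

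Signals are given as deposited, without logs, and the arrays differed in ways that touch these genes. The median over the array was 213 in Glut1-TG replicate 1 and 171 to 187 elsewhere. Over the log2 signals of all genes tested, this array correlated with the others at 0.927 to 0.936. Pairs of arrays without it had 0.952 to 0.966. WT replicate 1 held the highest signal of 6 of the 10 members and the highest mean of the cardiomyocyte markers, and Glut1-TG replicate 3 the lowest signal of 6 members. The brightest probe set on each array had a signal between 50102 and 63086, so the brightest probe sets of *Atp2a2* and *Pln* lay near the top of the range. The 7 fibroblast, 7 endothelial and 6 macrophage markers had medians of 0.11, 0.0035 and 0.04 with 0 calls. The 5 smooth muscle and pericyte markers tested had a median of -0.11, 3 of them below 0 and 0 called, with a summed signal of 22629 to 29163 in WT and 26053 to 26909 in Glut1-TG hearts, and their part in the members' values was not tested. Of 5 atrial markers tested, *Myl7* and *Myl4* rose, by 3.76 and 1.75 on the log2 scale (adjusted p = 0.041 and 0.0085 from limma). The median of the 5 was 0.10 with 1 below 0, and *Sln* lay under the filter. Their summed signal was 6680 to 7629 in WT and 6876 to 10072 in Glut1-TG hearts. What these values have to do with the members was not tested. *Slc2a1*, the mouse Glut1 gene, does not check the labels: its 3 probe sets had log2 fold changes of 0.69, -1.19 and -2.30, and which of them read the human transgene was not tested.

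For calcium entry and release, the RNA of the 2 channels and of the proteins that hold them together was read. The arrays measured RNA for all members, and neither protein nor calcium movement. *Cacna1c* encodes the pore of the cardiac L-type calcium channel. Its signal was 3558, 3938 and 3325 in the WT hearts and 4089, 3196 and 3534 in the Glut1-TG hearts, so that the Glut1-TG hearts held both the highest and the lowest value. The means were 3607 ± 310 and 3606 ± 451 (SD, n = 3 each). *Cacna1c* had a log2 fold change of -0.0042 ± 0.11 (SE, adjusted p = 0.99 from limma), with a 95% confidence interval from 0.84 to 1.18 times the WT level. Its second probe set had 0.09.

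*Ryr2*, the ryanodine receptor through which the store is emptied, had signals of 15527, 13458 and 14884 in WT hearts and of 12132, 13551 and 11482 in Glut1-TG hearts. The groups overlapped through Glut1-TG replicate 2, which lay just above WT replicate 2. The mean was 14623 ± 1059 in WT and 12388 ± 1058 in Glut1-TG hearts (SD, n = 3 each). *Ryr2* had a log2 fold change of -0.24 ± 0.09 (SE, adjusted p = 0.37 from limma), with a 95% interval from 0.73 to 0.98 times the WT level. A second, dimmer *Ryr2* probe set had -0.10 and signals of 1269 to 1576 in WT and 1277 to 1459 in Glut1-TG hearts.

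*Jph2* encodes junctophilin 2, which ties the T-tubule to the sarcoplasmic reticulum. Its brighter probe set had 7487 to 9041 in WT and 6878 to 8301 in Glut1-TG hearts (log2 fold change -0.06, adjusted p = 0.88 from limma). The dimmer one had the other sign, 0.28, with 1225 to 1436 in WT and 1289 to 2149 in Glut1-TG hearts, where replicate 1 was the high one. *Trdn* encodes triadin, which anchors calsequestrin to the ryanodine receptor. All 5 of its probe sets above the filter lay between -0.11 and -0.04, and the brightest had 5569 to 6138 in WT and 4770 to 6133 in Glut1-TG hearts (adjusted p = 0.79).

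Calsequestrin and the histidine-rich calcium-binding protein hold calcium inside the store. *Casq2*, the cardiac calsequestrin, had signals of 12540, 11237 and 12087 in WT and 11886, 12361 and 11025 in Glut1-TG hearts. The 2 sets of values were interleaved, and the means of 11955 ± 662 and 11757 ± 677 (SD, n = 3 each) differed by less than the SD of either group. The limma estimate in log2 fold change, -0.02 ± 0.08 (SE, adjusted p = 0.94), came with the narrowest interval of the 10 genes, 0.87 to 1.12 times the WT level. The array measures it by a single probe set, of a type that can read related transcripts. *Hrc* had 21376, 17418 and 19181 in WT and 16508, 17763 and 16027 in Glut1-TG hearts. Glut1-TG replicate 2 again lay above WT replicate 2, and *Hrc* had a log2 fold change of -0.20 ± 0.09 (SE, adjusted p = 0.47 from limma).

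Reuptake rests on the SERCA2 pump and on phospholamban, the small membrane protein that inhibits it until it is phosphorylated. *Atp2a2*, which encodes SERCA2, had signals of 51324, 40722 and 45508 in WT and 39370, 41541 and 38633 in Glut1-TG hearts. WT replicate 1 was the highest, WT replicate 3 also lay above all Glut1-TG hearts, and WT replicate 2 lay among them. The mean was 45851 ± 5309 in WT and 39848 ± 1512 in Glut1-TG hearts (SD, n = 3 each). *Atp2a2* had a log2 fold change of -0.20 ± 0.10 (SE, adjusted p = 0.50 from limma), with a 95% interval from 0.75 to 1.02 times the WT level, and it was -0.11 without WT replicate 1. All 6 *Atp2a2* probe sets had a negative log2 fold change, from -0.26 to -0.13, and in 4 of them every Glut1-TG heart lay below every WT heart. Such separation was seen in 7.91% of all 27023 probe sets tested, and in 16% counting either direction. The probe set with the smallest adjusted p (0.34) had 14798 to 16514 in WT and 13255 to 13691 in Glut1-TG hearts (log2 fold change -0.24). These 6 probe sets read the same RNA of the same hearts and are not separate replicates.

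*Pln*, which encodes phospholamban, had signals of 49530, 40784 and 45978 in WT and 42461, 40729 and 38015 in Glut1-TG hearts. As for *Atp2a2*, WT replicate 1 was the highest, and the lowest WT heart lay among the Glut1-TG hearts. *Pln* had a log2 fold change of -0.17 ± 0.10 (SE, adjusted p = 0.55 from limma), with a 95% interval from 0.77 to 1.03 times the WT level. The further *Pln* probe sets had -0.16 and -0.05.

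*Slc8a1* encodes NCX1, the exchanger that carries calcium out of the cell in return for sodium. It was the member with the largest log2 fold change and the only one whose groups did not overlap, beside 8.77% of all genes tested that lay lower in this way and 17.4% in either direction. Its signal was 599, 699 and 776 in WT and 594, 429 and 528 in Glut1-TG hearts, so that the gap between WT replicate 1 and Glut1-TG replicate 1 was far smaller than the spread within either group. The mean was 691 ± 88.8 in WT and 517 ± 83.0 in Glut1-TG hearts (SD, n = 3 each). *Slc8a1* had a log2 fold change of -0.42 ± 0.18 (SE, adjusted p = 0.41 from limma), with an interval from 0.57 to 0.98 times the WT level. All 4 *Slc8a1* probe sets had the same sign, from -0.64 to -0.36, and 2 of them had groups that did not overlap. On this probe set the value lay between -0.53 and -0.30 with any 1 heart left out. Leaving out a heart cannot make groups overlap that were already apart, so it does not test the separation. Without WT replicate 1 or Glut1-TG replicate 1 another *Slc8a1* probe set was the brightest, and its values were -0.79 (adjusted p = 0.28) and -0.37. After centring on the cardiomyocyte markers the *Slc8a1* groups overlapped, and *Casq2* was then the only member without overlap, in the higher direction. In that setting 22.6% of all genes had groups without overlap, counting either direction.

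*Camk2d* encodes the main cardiac isoform of calcium/calmodulin-dependent kinase II, which phosphorylates phospholamban and the ryanodine receptor. Its brightest probe set had 1616 to 2098 in WT and 1274 to 1893 in Glut1-TG hearts, and it had -0.26 ± 0.16 (SE) in log2 fold change (adjusted p = 0.59 from limma). Without Glut1-TG replicate 1, the lowest heart, it was -0.09, and with the mean of the probe sets -0.02. The 3 others above the filter had -0.15, -0.03 and 0.35. A further 3 probe sets of *Camk2d* and 1 of *Trdn* had mean signals under the filter of 115 and were not tested. They ranged from 6.2 to 188 for *Camk2d* and from 56.3 to 231 for *Trdn*.

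**Figure D2:**
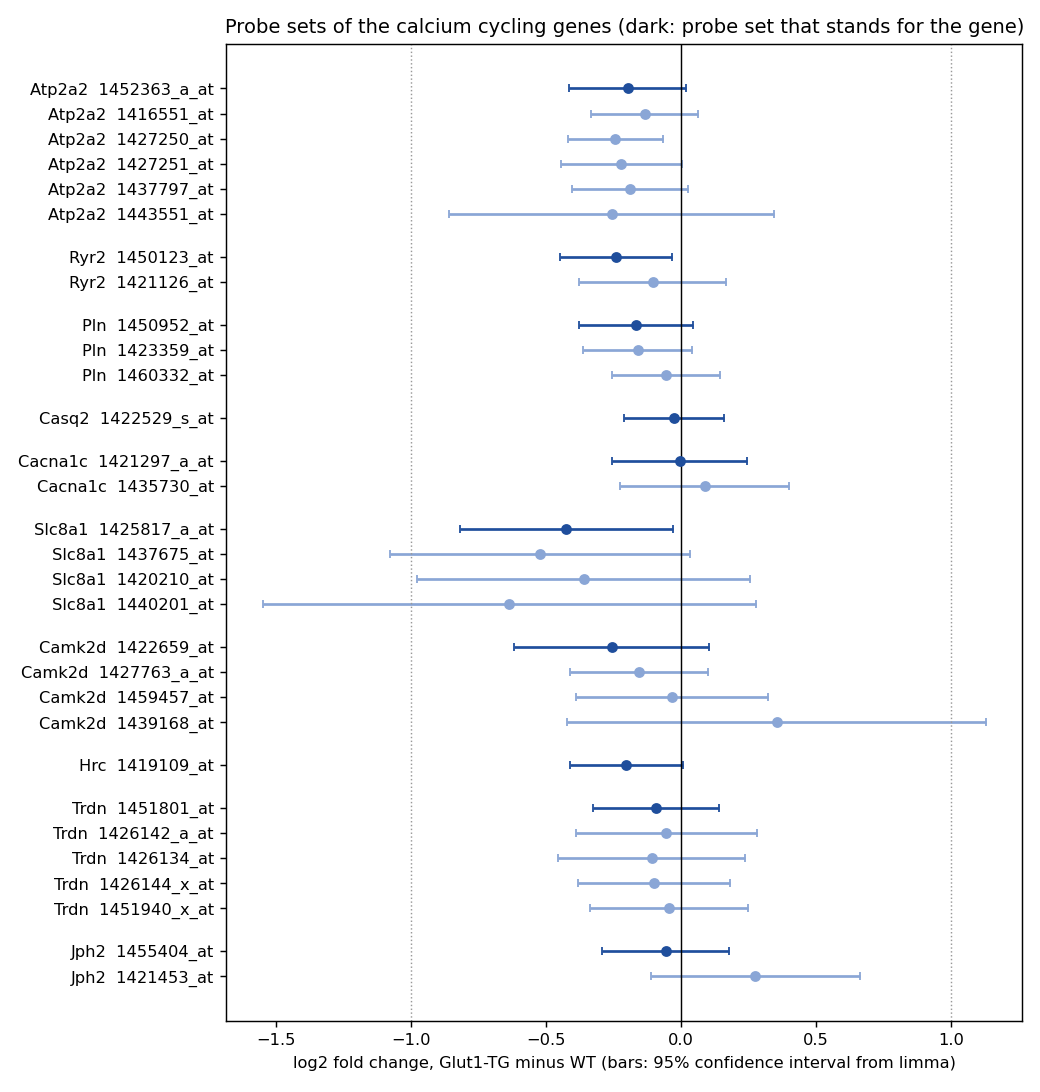
On the horizontal axis, the Glut1-TG minus WT log2 fold change of the 30 probe sets above the filter, grouped by gene, with bars for the 95% confidence interval from limma and dotted lines at 2-fold. Of the 30 points, 27 lie below 0, and the intervals of the 10 probe sets that stand for a gene (dark) lie inside the dotted lines.

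Of the 34 probe sets, 30 passed the filter on dim values and 0 of these passed limma (smallest adjusted p = 0.34), beside 0.437% of the probe sets tested. Their log2 fold changes ran from -0.64 to 0.35. Over the 10 genes, the unadjusted 95% intervals from limma reached down to 0.57 times the WT level, for *Slc8a1*, and up to 1.18 times, for *Cacna1c*, at the deposited scaling. On the probe sets that stand for the genes, no interval therefore reached a 2-fold difference. Those of 2 further *Slc8a1* probe sets reached down to -1.55 and -1.08 on the log2 scale, and that of a dimmer *Camk2d* probe set up to 1.13, past 2-fold. The *Slc8a1* probe set with -1.08 was about as bright as the one that stood for the gene. Its mean signals were 727 in WT and 497 in Glut1-TG hearts, beside 691 and 517. Smaller differences were not resolved with 3 arrays in each group.

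Promoter sequences are shown for the members with the 2 lowest unadjusted p values, *Slc8a1* and *Ryr2*, and for *Pln*. Each window runs from 250 bases before to 50 bases after a gene start, as given by RefSeq for GRCm38.p6, and is written 5′ to 3′ on the strand of the gene. *Slc8a1* lies on the minus strand at chr17:81738338-81738637, *Ryr2* on the minus strand at chr13:12106896-12107195 and *Pln* on the plus strand at chr10:53337436-53337735. Capitals mark CACCC on either strand (GGGTG where it lies on the opposite one), the core of the boxes that Krüppel-like factors bind, and TATAAA on either strand. The study's own interest in the Krüppel-like factor Klf15 is why CACCC was searched.
Slc8a1: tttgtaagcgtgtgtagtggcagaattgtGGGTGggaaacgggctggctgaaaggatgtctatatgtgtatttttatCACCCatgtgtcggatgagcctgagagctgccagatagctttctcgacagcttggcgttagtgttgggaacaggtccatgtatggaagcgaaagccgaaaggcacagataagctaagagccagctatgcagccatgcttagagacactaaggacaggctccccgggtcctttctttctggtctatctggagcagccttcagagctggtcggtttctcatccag
Ryr2: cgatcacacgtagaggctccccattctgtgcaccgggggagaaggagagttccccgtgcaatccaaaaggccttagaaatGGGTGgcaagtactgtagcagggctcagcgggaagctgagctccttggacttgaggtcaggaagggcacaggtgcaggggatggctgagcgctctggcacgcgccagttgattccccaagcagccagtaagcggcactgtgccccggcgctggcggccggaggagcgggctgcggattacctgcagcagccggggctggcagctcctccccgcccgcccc
Pln: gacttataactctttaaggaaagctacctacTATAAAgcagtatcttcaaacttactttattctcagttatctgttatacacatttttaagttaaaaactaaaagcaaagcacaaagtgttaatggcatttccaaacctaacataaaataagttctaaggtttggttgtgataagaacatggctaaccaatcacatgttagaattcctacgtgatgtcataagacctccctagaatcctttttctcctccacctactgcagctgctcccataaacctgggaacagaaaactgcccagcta
*Slc8a1* held CACCC 2 times, once on each strand, *Ryr2* held it once and *Pln* had none but a TATAAA. RefSeq windows were found for 8 of the 10 genes, 11 windows in all, and not for *Atp2a2* and *Trdn*. CACCC occurred in 7 of the 11 windows, from 5 of 8 genes, and in 57.5% of 32851 promoter windows of the same length. TATAAA occurred in 1 of the 11 and in 13.6% of all windows. The cyclic AMP response element TGACGTCA occurred in 0 of the 11 and in 1.79% of all windows. No binding was measured in these hearts.

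Whether the members differ from each other can be read within each array, where a constant factor of the array cancels. A change that depends on the signal level, as in quantile normalization, does not cancel. The log2 signal of *Pln* minus that of *Atp2a2*, inhibitor against pump, was -0.051, 0.0020 and 0.015 in WT and 0.109, -0.029 and -0.023 in Glut1-TG hearts. Glut1-TG replicate 1 was the high one and the others overlapped. The difference between the groups was 0.03 (exact permutation test, two-sided, p = 0.80), and -0.01 without Glut1-TG replicate 1. For *Slc8a1* minus *Atp2a2*, RNA of the exchanger against that of the pump, it was -0.23 with overlapping groups (p = 0.50 by the same exact test). It was -0.44 after quantile normalization and -0.28 with the mean of the probe sets (exact permutation p = 0.1 each), and ran from -0.41 to -0.07 on the same probe sets with 1 heart left out, lowest without WT replicate 1 and highest without Glut1-TG replicate 2.

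*Casq2* minus *Ryr2*, the store buffer against the release channel, was -0.308, -0.260 and -0.300 in WT and -0.030, -0.133 and -0.059 in Glut1-TG hearts. Every Glut1-TG heart lay above every WT heart. The means were -0.29 ± 0.03 and -0.07 ± 0.05 (SD, n = 3 each), a difference of 0.22 on the log2 scale (p = 0.1 by the two-sided exact permutation test, and no lower p is possible with 3 hearts against 3). Adjusted over these 3 differences by Benjamini-Hochberg, the p was 0.3. The difference lay between 0.19 and 0.25 without any 1 heart. It rests on the brighter *Ryr2* probe set: against the dimmer one it was 0.08, with overlapping groups (exact permutation test, p = 0.6).

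**Figure D3:**
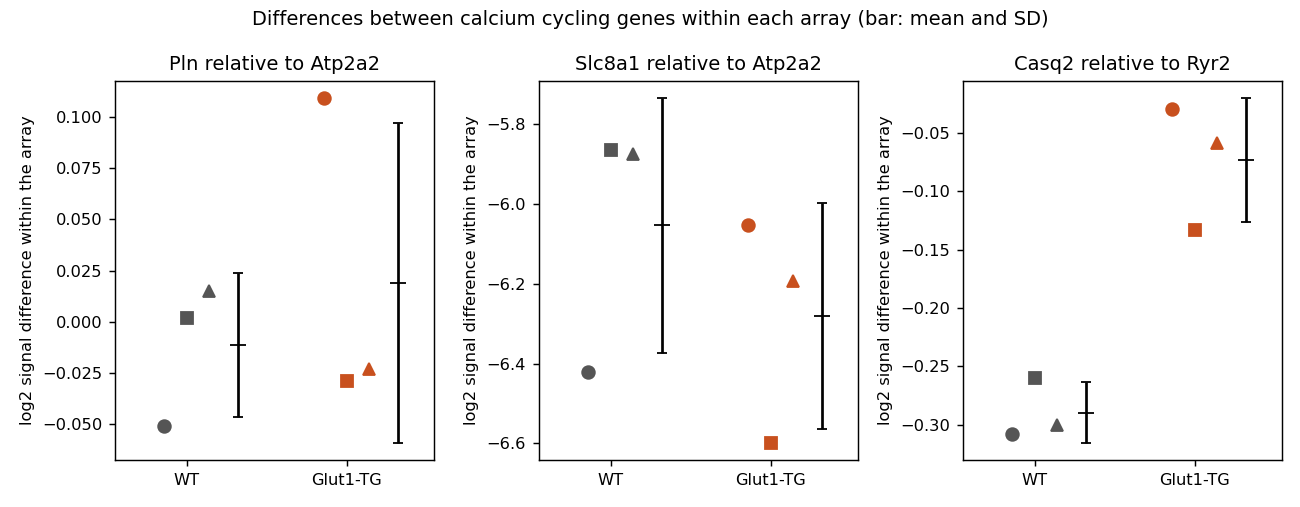
Log2 signal of the first gene minus that of the second within each array (vertical axis, a separate range in each panel), with 1 point per heart (circle replicate 1, square 2, triangle 3) and bars for the mean and SD. For Casq2 relative to Ryr2 the Glut1-TG hearts lie from -0.133 to -0.030, above the WT hearts at -0.308 to -0.260, and in the other panels the groups overlap.

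The log2 fold changes of the members shifted with the scaling of the arrays. After quantile normalization the median log2 fold change of the 10 genes was -0.02 and 7 of 10 were negative, and the cardiomyocyte markers had a median of 0. Using the cardiomyocyte markers to centre the arrays added the same 0.17 to every gene, so that the median of the members was -0.0089 with 5 of 10 negative, and that of all genes 0.19. Centring on the array median moved the members to -0.28 and all genes to -0.08. *Atp2a2* had -0.01 after quantile normalization, -0.02 after centring on the markers and -0.30 after centring on the array median. *Slc8a1*, *Ryr2*, *Hrc*, *Camk2d* and *Atp2a2* were below 0 in all 4 scalings, *Slc8a1* between -0.52 and -0.25. Both kinds of centring add a constant too small to turn these values, so only quantile normalization could have changed their sign. *Casq2*, *Cacna1c* and *Jph2* were positive after quantile normalization. They and *Pln* and *Trdn* were positive after centring on the markers, where the constant shift fixes this for any value just below 0. No member passed limma in any of these 4 scalings (adjusted p from 0.34 to 0.99).

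**Figure D4:**
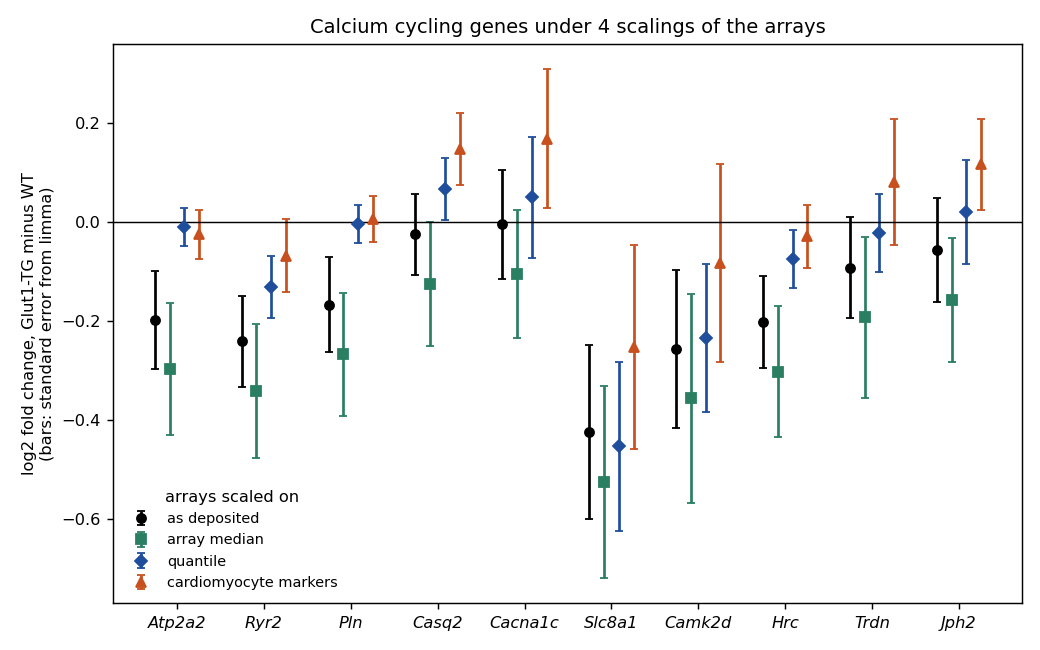
Log2 fold change (Glut1-TG minus WT, vertical axis) of the 10 genes with the arrays used as deposited, centred on the array median, quantile normalized, or centred on the cardiomyocyte markers, and limma standard errors as bars. The points of Atp2a2 and Pln move from -0.20 and -0.17 to close to 0 after quantile normalization and after centring on the markers. Slc8a1 lies below 0 in all 4 scalings, and centring only adds a constant to every gene.

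Other genes of calcium handling were taken from 5 lists, and 0 of their 59 measured genes passed limma, beside 0.857% of all genes tested. At the study's thresholds *Casq1* and *Cacnb4* were called higher and *Itpr2*, *Fxyd1* and *Letm1* lower, beside 5.84% of all genes in either direction. The genes named below were picked by their low p, so groups without overlap are likely among them. Over all genes tested 17.4% had such groups, 8.77% lower. Values are given for description. Among paralogs of the members, 12 of 18 were above the filter, with a median of 0.08. The largest value was that of *Casq1*, the calsequestrin known from fast skeletal muscle. Its signal was 2051, 2800 and 1496 in WT and 3684, 3749 and 3706 in Glut1-TG hearts, so that every Glut1-TG heart lay above every WT heart and the Glut1-TG hearts were close together. *Casq1* had a log2 fold change of 0.86 ± 0.19 (SE, adjusted p = 0.086 from limma). It passed without WT replicate 2 (1.08, adjusted p = 0.021) and did not pass without any other heart (adjusted p from 0.16 to 0.24). *Jph1*, the junctophilin of skeletal muscle, had 664 to 716 in WT and 386 to 623 in Glut1-TG hearts (log2 fold change -0.41, adjusted p = 0.47). A dimmer *Jph1* probe set had -0.13, with overlapping groups. Of 8 markers of skeletal muscle, 5 lay under the filter, the fast myosin genes *Myh4* and *Myh1* among them, and the 3 tested had 0 calls.

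Among partners of the L-type channel, 6 of 9 were measured, with a median of -0.02. *Cacnb4*, a beta subunit, had 99.3 to 148 in WT and 206 to 250 in Glut1-TG hearts (log2 fold change 0.88, adjusted p = 0.39 from limma), with WT signals near the filter. *Ahnak*, a large scaffold that binds the channel's beta subunit, had -0.24 (adjusted p = 0.35), and its dimmer probe sets above the filter had 0.10 and -0.32. Of the proteins of the sarcoplasmic reticulum and its junctions, 15 of 17 were measured with a median of -0.05. *S100a1*, a calcium-binding partner of SERCA2 and the ryanodine receptor, had 23895 to 26954 in WT and 20227 to 21202 in Glut1-TG hearts. Its groups did not overlap, as in 6 of the 15 genes, all lower, and 0 were higher in this way. Of the 14 cardiomyocyte markers, 5 also lay lower without overlap. At an unadjusted limma p under 0.05, 4 of the 15 genes were lower and 2 higher, beside 5.81% of all genes lower and 11.3% in either direction. *S100a1* had a log2 fold change of -0.29 ± 0.08 (SE, adjusted p = 0.19 from limma), and of -0.11 after centring on the cardiomyocyte markers (adjusted p = 0.43 from limma). *Itpr2*, an inositol trisphosphate receptor, had -0.49 (adjusted p = 0.27), while its 4 other probe sets above the filter had -0.17 to 0.73.

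For calcium removal and mitochondrial uptake, 10 of 15 genes were measured with a median of -0.12. *Fxyd1*, phospholemman, which regulates the sodium pump, had 16692 to 20393 in WT and 13661 to 15143 in Glut1-TG hearts, without overlap. *Fxyd1* had a log2 fold change of -0.33 ± 0.10 (SE, adjusted p = 0.24 from limma). *Letm1*, a protein of the inner mitochondrial membrane, had -0.36 (adjusted p = 0.32), while its dimmer probe sets above the filter had 0.14, -0.31 and -1.63. Of calmodulin, kinase and phosphatase genes 16 of 20 were measured, with a median of -0.05. *Ppp3cb*, a catalytic subunit of calcineurin, and *Rcan2*, a regulator of calcineurin, had -0.25 and -0.21 (adjusted p = 0.37 and 0.44).

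**Figure D5:**
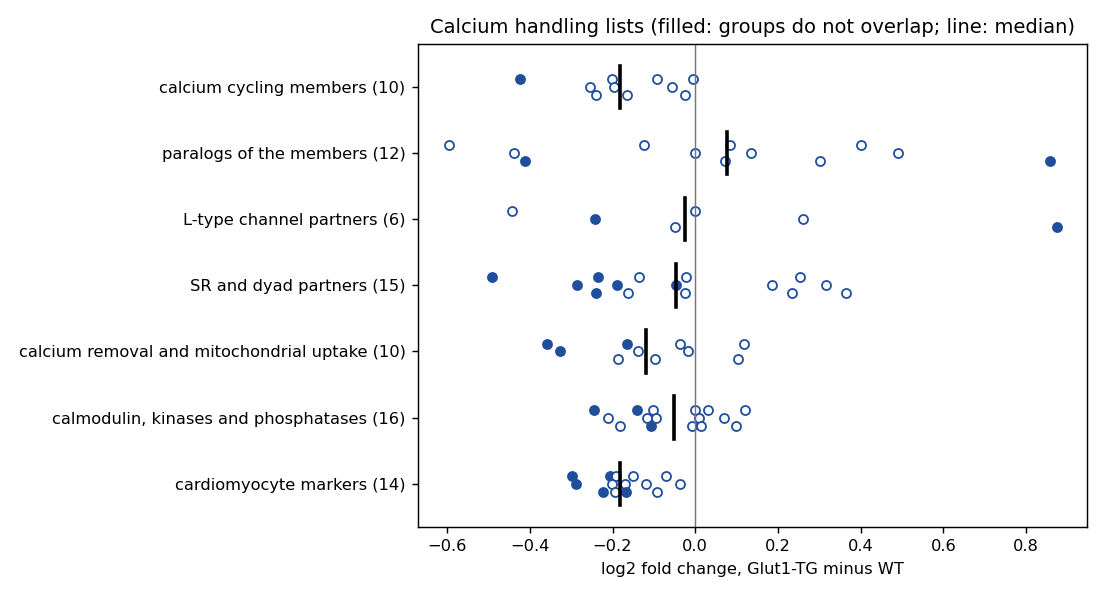
On the horizontal axis, the Glut1-TG minus WT log2 fold change of the measured genes of the 10 members, 5 lists of other calcium handling genes and the cardiomyocyte markers, as 1 point per gene with the number measured in brackets. Filled points are genes whose groups do not overlap, and the medians (lines) run from -0.18 for the members and the cardiomyocyte markers to 0.08 for the paralogs.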

How the data were processed

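Total RNA of the left ventricles was extracted with Trizol and labelled as biotinylated cRNA for an Affymetrix mouse array, per the labels. The deposited values are signal intensities from GCOS, whose version is not given in the sources used here. In the deposited table each array averages 500 once the highest and lowest 2% of values are set aside, so the authors' scaling sets levels relative to the whole array. Of 45101 probe sets, 64 controls were left out. A floor of 1 was applied (48 values) before log2. Symbols came from the platform's annotation, and 34945 probe sets had 1 symbol. The brightest probe set stood for each gene, and the lowest 40% by mean log2 signal (under 115) were left out, which left 13178 genes and 27023 probe sets. Glut1-TG was compared with WT in R 4.3.3 with limma 3.58.1 (intensity trend, Benjamini-Hochberg over all features tested, threshold 0.05). The methods' t-test was used for the study's thresholds. Differences within arrays were tested by exact permutation over 20 groupings. The labels name no separate litters or batches, so p-values measure the spread between these hearts.

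The 10 members and all lists, written from general knowledge, were chosen with earlier results of these data known. Named genes are all members and, from each other calcium handling list, the genes past limma or otherwise the 2 with the lowest p. Cell type markers were given as counts and medians, apart from the 2 atrial genes that passed. The procedure was tested on simulated data. Alternatives were 3 other scalings, an offset of 50 before log2, no filter, a filter keeping the upper 40%, averaging a gene's probe sets, leaving out each array, the replicate block, no trend and the methods' t-test. Probe sets without a filter, and leaving out each array with the probe set of each gene held, were added after the data were seen. The brightest probe set was otherwise chosen again in each alternative, which changed it for *Slc8a1* alone among the members when a heart was left out.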

Additional observations from a re-analysis of the deposited data

How the results depend on the processing

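No member passed limma under any of the 16 alternatives with an adjusted p, nor with 1 heart left out and probe sets held, and 2 did at an unadjusted p. At the study's thresholds 1 member, *Slc8a1*, was called after quantile normalization, after centring on the array median and with the mean of the probe sets (1 each), and leaving out a heart gave 0 to 1. Members whose groups did not overlap numbered 2 after quantile normalization, 5 after centring on the array median and 2 with the mean of the probe sets, where 17.2%, 16% and 16.6% of all genes did not overlap, and 6 of 30 as single probe sets (16%). Leaving out a heart gave 1 to 5, when 24.5% to 30.3% of all genes did not overlap. Over all genes, 66 were called after centring on the array median, 68 with the mean of the probe sets, 4 with no intensity trend and 1 by the methods' t-test, and 44 to 86 without 1 heart. Over probe sets, 178 were called in the upper 40% and 0 with no trend, and 42 to 114 without 1 heart. Other calcium handling genes had 0 to 1 calls without 1 heart.

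The correlations of same-numbered deviations were 0.08, -0.03 and 0.06, and those of other numbers ran from -0.11 to 0.06. With 3 hearts in each group they cannot decide whether the replicate numbers pair the hearts. With the replicate block 69 genes were called and 0 members. Signs turned after centring on the markers for *Pln* (0.0064), *Casq2* (0.15), *Cacna1c* (0.17), *Trdn* (0.0812) and *Jph2* (0.12). They turned after quantile normalization for *Casq2* (0.0668), *Cacna1c* (0.0502) and *Jph2* (0.0207), and with the mean of the probe sets for *Cacna1c* (0.042), *Jph2* (0.11) and *Slc2a1* (-0.93). Without 1 heart, *Casq2* ran from -0.0681 to 0.0214, *Cacna1c* from -0.10 to 0.0792, *Trdn* from -0.17 to 0.012 and *Jph2* from -0.11 to 0.0306. Without 1 heart, *Pln* relative to *Atp2a2* ran from -0.0145 to 0.0543. The cause was not tested.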
